A study of Mus musculus with 23 samples.

Results

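The regions described here are enhancers of the adult mouse cortex that carried H3K27ac in the anterior cingulate cortex (ACC), the retrosplenial cortex (RSC) and the lateral entorhinal cortex (LEC), and for which no H3K27ac region was listed in the medial entorhinal cortex (MEC). They were chosen by joining the H3K27ac enhancer lists of the 4 subregions at any overlap of 1 bp or more, and by keeping each joined element to which ACC, RSC and LEC all contributed and which overlapped no region of the full MEC H3K27ac list. This gave 5884 elements of 42115 (14.0%), called non-MEC shared enhancers below. The MEC list was the shortest by far, with 22848 H3K27ac regions in its full list, while the full ACC list held 48266, the RSC list 41584 and the LEC list 42136, so absence from it is not absence of acetylation. With the ACC, RSC and LEC H3K27ac enhancer lists brought to the MEC number of regions, the widest kept, the same rule gave 1698 elements.

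The mice were C57BL6J at postnatal day 56, and tissue was dissected from both hemispheres of unstained 500 µm sections by their architecture. The groups used were ACC, RSC, LEC and MEC, each with chromatin immunoprecipitation for H3K27ac and for H3K4me2, with 2 libraries per group apart from MEC H3K4me2 with 1. No treatment or mutation separated the groups. The deposited lists hold regions and no value per library or gene, so the dissections could not be checked against marker genes, the depth of each library is unknown, and animals could not be compared by a test. No source used here gives the sex of the animals or says if 2 libraries of a group are from different ones.

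Enhancers are stretches of DNA that raise the transcription of genes at a distance. H3K27ac is an acetyl mark set by the CBP family of acetyltransferases on the nucleosomes of active enhancers and promoters. H3K4me2 is a methyl mark that is found on the same kinds of site and that can also lie on enhancers that are not active, which are then called primed. ACC and RSC are midline areas, of which RSC takes part in spatial memory and navigation. LEC and MEC are the divisions of the entorhinal cortex, which passes information between neocortex and hippocampus, and MEC is known for its grid cells, neurons that fire at regularly spaced positions of the animal.

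The rule used the H3K27ac lists, so everything on H3K27ac below is a description without a test. Elements with ACC, RSC and LEC numbered 9993, of which 4092 also held a MEC enhancer region and 5901 did not. The full MEC list, which adds the H3K27ac regions that its enhancer list leaves out, removed a further 17. The non-MEC shared enhancers were therefore 58.9% of all elements common to ACC, RSC and LEC, and 39.1% (1698 of 4346) with lists of the MEC number. They held 21.8% of the ACC, 25.4% of the RSC and 26.8% of the LEC enhancer regions.

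Most of these enhancers were simple in outline. In 5352 of them (91.0%) each of ACC, RSC and LEC contributed 1 region. Their joined spans covered 24.1 Mb, and 49.9% of this was listed in ACC, RSC and LEC at once, called the common core below. In 76 elements the 3 lists were joined as a chain with no base in common.

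ACC had the widest H3K27ac at these enhancers. The median number of bases listed was 2675 bp in ACC, with quartiles of 1800 and 4325 bp, and 2150 bp in RSC, with quartiles of 1500 and 3300 bp. In LEC it was 2400 bp, with quartiles of 1675 and 3725 bp. ACC held the most bases in 2591 elements (44.0%), LEC in 1897 (32.2%) and RSC in 1259 (21.4%), with 137 ties. This was not particular to these enhancers, since ACC also had the largest median in the elements of all 4 subregions, at 4425 bp. The ACC H3K27ac enhancer list was also the longest, with 27909 regions, against 24272 in RSC and 22973 in LEC. Over these whole lists the median region width was 2075 bp in ACC, 2075 bp in RSC and 2200 bp in LEC. Widths went together across the elements, with a Spearman rho of 0.64 between ACC and LEC, 0.61 between ACC and RSC and 0.51 between RSC and LEC over 5884 elements. These elements all passed the same overlap rule, and the regions of a list come from the same libraries.

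The enhancers were narrower than those carried by all 4 subregions. The median joined span was 3275 bp, with quartiles of 2250 and 5075 bp, against 5450 bp, with quartiles of 3550 and 8931 bp, in the 4092 elements of all 4 subregions. With elements joined from the ACC, RSC and LEC lists only, so that no MEC region could bridge or widen them, the median was 3275 bp in the non-MEC shared enhancers and 5325 bp in elements that also overlapped a MEC enhancer region. With H3K27ac lists of the MEC number they were 5400 bp in the 1698 non-MEC shared enhancers and 7025 bp in the 2642 elements of all 4 subregions. Widths thus depended on the length of the lists, and the order of the classes was the same in these settings. Over elements with a common core, its median was 1675 bp in the non-MEC shared enhancers and 2925 bp in those of all 4 subregions. The bases listed had medians of 2675 bp in ACC, 2150 bp in RSC and 2400 bp in LEC, against 4425, 4025 and 3875 bp in the elements of all 4 subregions.

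**Figure D1:**
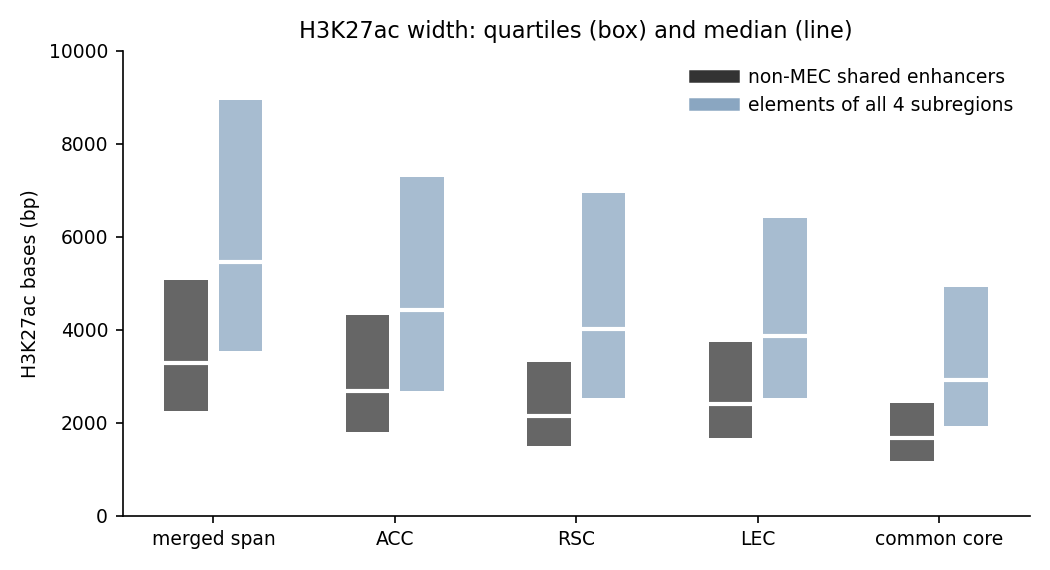
Number of H3K27ac bases (bp) of the 5884 non-MEC shared enhancers (dark) and of the 4092 elements of all 4 subregions (light), for the joined span, the bases listed in ACC, RSC and LEC, and the common core of these 3 lists. Boxes run between the quartiles and the white line is the median. The median core was 1675 bp in the non-MEC shared enhancers and 2925 bp in the elements of all 4 subregions.

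Listing in MEC followed the width of the core closely. Among the 9993 elements common to ACC, RSC and LEC, those in the lowest decile of core width, up to 975 bp, overlapped the full MEC H3K27ac list in 14.5% of cases (12.5 to 16.8, a Wilson 95% interval that covers counting error only, as do all ranges in brackets after percentages). The share was 32.8% (29.9 to 35.8) for cores of 1775 to 2025 bp and 83.8% (81.3 to 85.9) for cores of 5525 bp or more. It was larger in each decile than in the decile below it. Overlap was counted from 1 bp on the whole joined element, so wider elements had more bases that could be overlapped. MEC enhancer regions could also join or widen elements. Of the 991 elements with the widest cores, 161 were in the non-MEC shared class.

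H3K4me2 was not used to choose these enhancers and is a second readout of the same sites. It comes from the same subregions, and the MEC lists were the shortest for both marks, so it is not fully independent of the choice. H3K4me2 lay on most of these enhancers in ACC, RSC and LEC and on a minority of them in MEC. ACC H3K4me2 enhancer regions overlapped 4310 of the 5884, or 73.2% (72.1 to 74.4), where 51.1% of all 42115 H3K27ac elements were overlapped. RSC regions overlapped 3722, or 63.3% (62.0 to 64.5), where the figure for all elements was 44.3%. LEC regions overlapped 3882, or 66.0% (64.8 to 67.2), where it was 43.5%. MEC regions overlapped 1480, or 25.2% (24.1 to 26.3), where it was 19.5%. When at least 25% of the enhancer had to be covered, the MEC share was 13.7% (12.9 to 14.6), where the figure for all elements was 11.7%. The other shares moved less under that condition, to 69.7% for ACC (48.5% of all elements), 56.6% for RSC (40.8% of all elements) and 60.1% for LEC (40.2% of all elements).

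The non-MEC shared enhancers were thus above all elements in H3K4me2 of every subregion, MEC included, and MEC stood lowest in level. They were also wider, with a median joined span of 3275 bp against 2175 bp in all elements. Overlap was counted from 1 bp, and these shares were not matched for width. The ratio to all elements was 1.43 for ACC, 1.43 for RSC, 1.52 for LEC and 1.29 for MEC. The MEC H3K4me2 enhancer list was also the shortest, with 15041 regions covering 14.5 Mb, while the ACC list held 34180 (72.1 Mb), the RSC list 28675 (54.1 Mb) and the LEC list 29125 (57.7 Mb). With the ACC, RSC and LEC H3K4me2 lists brought to the MEC number by keeping the widest regions, overlap was 48.7% for ACC, 45.0% for RSC and 46.8% for LEC, and MEC stayed at 25.2%. The kept regions were the widest of their lists, whereas the MEC list was used whole.

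Adding the H3K4me2 regions that the enhancer lists leave out added few sites. The full lists overlapped 74.9% of these enhancers in ACC, where 56.7% of all elements were overlapped, and 64.5% in RSC, where the figure was 47.9%. They overlapped 67.5% in LEC, against 47.8% of all elements, and 25.3% in MEC, against 20.2%. In MEC this added 9 enhancers to the 1480.

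**Figure D2:**
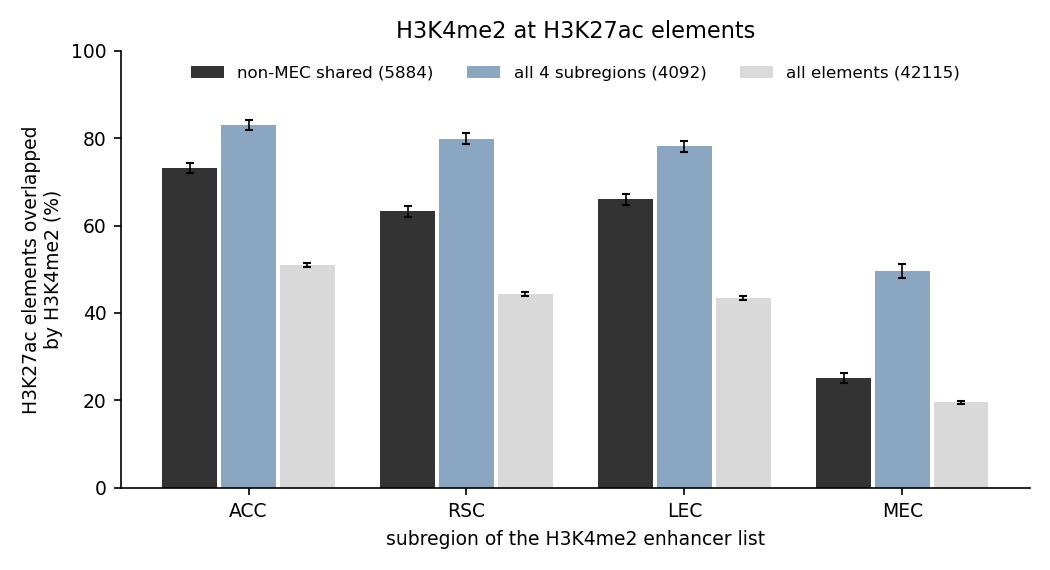
Percentage of H3K27ac elements overlapped by the H3K4me2 enhancer list of each subregion, for the 5884 non-MEC shared enhancers (dark), the 4092 elements of all 4 subregions (blue) and all 42115 elements (grey), with Wilson 95% intervals. MEC H3K4me2 lay on 25.2% of the non-MEC shared enhancers and on 49.6% of the elements of all 4 subregions.

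The most frequent combination of H3K4me2 was ACC, RSC and LEC without MEC, and it was nearly as frequent where MEC had listed H3K27ac. It was found at 1691 enhancers, or 28.7% (27.6 to 29.9), against 26.1% (24.8 to 27.4) of the elements of all 4 subregions. The classes were farther apart in the other leading combinations. H3K4me2 in all 4 subregions was found at 919 enhancers, or 15.6% (14.7 to 16.6), against 36.6% (35.2 to 38.1) of the elements of all 4 subregions. No H3K4me2 in any subregion was found at 767, or 13.0% (12.2 to 13.9), against 5.67% (5.002 to 6.42).

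The remaining combinations were smaller. ACC with LEC alone was found at 568 enhancers, or 9.65%, against 4.81% of the elements of all 4 subregions. ACC with RSC alone was found at 425 (7.22% against 5.25%) and RSC with LEC alone at 228 (3.87% against 2.25%). ACC alone was found at 381 (6.48% against 2.22%) and RSC alone at 173 (2.94% against 2.54%). LEC alone was found at 171 (2.91% against 1.59%) and MEC alone at 37 (0.63% against 0.88%). H3K4me2 in MEC without any of the others was the rarest of the 16 combinations, with RSC and MEC alone next at 38. In the elements of all 4 subregions RSC and MEC alone, at 19, was rarer than MEC alone, at 36.

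In MEC, H3K4me2 was seldom found where the other subregions had none. Of the 1480 enhancers with MEC H3K4me2, 97.5% (96.6 to 98.2) also had it in at least 1 of ACC, RSC and LEC, and 62.1% (59.6 to 64.5) had it in all 3. The shares were already high in the 4404 enhancers without MEC H3K4me2, at 82.6% (81.4 to 83.7) and 38.4% (37.0 to 39.8). The share with MEC H3K4me2 was 4.60% (3.36 to 6.28) where none of the others had the mark, 15.3% (13.0 to 17.9) where 1 did, 24.3% (22.3 to 26.5) where 2 did and 35.2% (33.4 to 37.1) where 3 did. Of 1450 kb of MEC H3K4me2 inside these enhancers, 96.4% lay inside an H3K4me2 region of ACC, RSC or LEC, and 81.9% inside one of ACC. For comparison, ACC H3K4me2 covered 63.6% of the bases of the common cores and 31.5% of the bases around them. The share of enhancer bases covered by the 3 lists together was not computed, so the 96.4% has no reference.

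The same order held, at higher levels, in the elements of all 4 subregions. There MEC H3K4me2 was found at 13.4% (9.86 to 18.0), 25.1% (20.8 to 29.9), 44.7% (41.5 to 47.9) and 58.4% (56.5 to 60.3) of elements with the mark in 0, 1, 2 and 3 of the others. With ACC, RSC and LEC all carrying H3K4me2, the MEC share was therefore 35.2% of 2610 non-MEC shared enhancers and 58.4% of 2566 elements of all 4 subregions. Sites where MEC lacked listed H3K27ac thus also had less listed MEC H3K4me2 at equal presence of the mark elsewhere. The intervals did not overlap, but elements are not replicates of MEC, and only 1 MEC H3K4me2 library is among the samples, so this is no test between animals. The elements of all 4 subregions were also wider, with a median joined span of 5450 bp against 3275 bp, and these shares were not matched for width.

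Within an enhancer H3K4me2 covered a larger share of the bases that ACC, RSC and LEC all listed for H3K27ac than of the other bases. ACC H3K4me2 covered 63.6% of the bases of the common cores and 31.5% of the bases around them, and RSC H3K4me2 covered 50.1% and 16.9%. LEC H3K4me2 covered 54.1% of core bases and 21.7% of the others, and MEC H3K4me2 covered 10.2% and 1.88%. The ratio of core to flank was 2.02 for ACC, 2.97 for RSC, 2.49 for LEC and 5.43 for MEC. The core was defined by H3K27ac alone.

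Where the mark was present, it was mostly 1 region per enhancer, in 90.8% of cases for ACC, 92.5% for RSC, 92.1% for LEC and 96.3% for MEC. Its median extent inside the enhancer was 2075 bp in ACC, 1775 bp in RSC, 1825 bp in LEC and 875 bp in MEC. As a share of the enhancer this was a median of 69.0%, 58.2%, 61.8% and 26.9% in the same order. MEC H3K4me2 enhancer regions had a median width of 750 bp over their whole list, against 1600 bp in ACC, 1500 bp in RSC and 1550 bp in LEC, so the narrow MEC extent was not particular to these sites.

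Enhancers with wider cores carried H3K4me2 more often in ACC, RSC and LEC, whereas the MEC share was lowest in the narrowest bin and highest in the next. Overlap of 1 bp was enough, so a wider core had more bases that could be overlapped. When the enhancers were split into 4 bins at the quartiles of their common core and overlap was counted on the core itself, ACC H3K4me2 was found on 57.5% (55.0 to 60.01) in the narrowest bin and 80.6% (78.5 to 82.6) in the widest. RSC went with it, at 48.6% (46.0 to 51.1) and 71.1% (68.7 to 73.3), and so did LEC, at 50.0% (47.5 to 52.6) and 74.8% (72.5 to 76.9). The MEC shares from the narrowest to the widest bin were 18.4% (16.5 to 20.5), 27.2% (24.98 to 29.5), 23.6% (21.5 to 25.9) and 23.6% (21.5 to 25.8). The narrowest bin included the 76 enhancers with no common core, on which no overlap could be counted, so its shares are lowered by them.

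The elements of all 4 subregions gave a measure of what MEC H3K4me2 did at cores of like width. In them the MEC shares over the same bins were 26.4% (21.5 to 31.9), 42.2% (37.9 to 46.6), 45.2% (41.8 to 48.6) and 50.4% (48.5 to 52.4). The difference, non-MEC shared enhancers minus elements of all 4 subregions, was -7.97 percentage points in the narrowest bin, -15.1 and -21.6 in the next ones and -26.8 in the widest. For ACC the same differences were 8.07, -2.21, -2.87 and -6.88 points. For LEC they were 2.78, -0.45, -6.24 and -8.35 points, and for RSC -1.63, -9.54, -11.3 and -12.4 points. In both classes the narrowest bin included elements with no common core, which could not be overlapped. A core was present in 5808 of 5884 non-MEC shared enhancers and in 4056 of 4092 elements of all 4 subregions. The bin held 1483 and 273, so coreless elements were a larger part of it in the elements of all 4 subregions. The differences in this bin, signs included, therefore depend in part on these elements and were not computed without them. Within the widest bin the elements of all 4 subregions still had wider cores, with a median of 4250 bp against 3400 bp in the non-MEC shared enhancers. The MEC difference was the most negative of the 4 subregions in each bin.

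**Figure D3:**
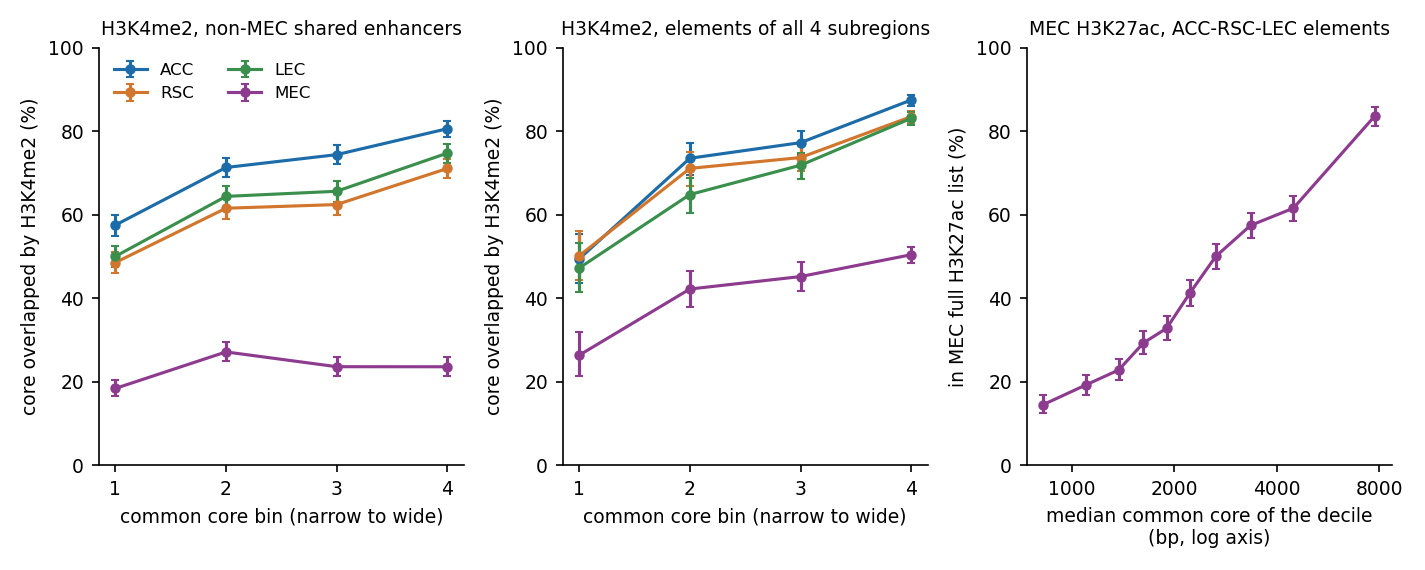
Left and middle, percentage of common cores overlapped by the H3K4me2 enhancer list of each subregion, in 4 bins of core width (up to 1150, 1175 to 1675, 1700 to 2400 and from 2425 bp), for the non-MEC shared enhancers (left) and the elements of all 4 subregions (middle). Right, percentage of elements of ACC, RSC and LEC found in the full MEC H3K27ac list, by decile of core width on a log axis. Bars are Wilson 95% intervals. The narrowest bin includes elements with no common core, which could not be overlapped. MEC H3K4me2 ended at 23.6% in the widest bin on the left and at 50.4% in the middle, and MEC H3K27ac ran from 14.5% to 83.8% on the right.

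The same rule turned round for the other subregions gave the classes most like this one: elements of 3 subregions that overlapped no region in the full H3K27ac list of the fourth. There were 1198 without LEC, 451 without RSC and 442 without ACC, beside the 5884 without MEC. The question was how often the subregion without listed H3K27ac had listed H3K4me2. MEC H3K4me2 lay on 25.2% (24.1 to 26.3) of the enhancers without MEC, which is 1.29 times its share over all elements. LEC H3K4me2 lay on 30.1% (27.5 to 32.7) of the elements without LEC, where the share over all elements was 43.5%, a ratio of 0.69. RSC H3K4me2 lay on 67.2% (62.7 to 71.4) of the elements without RSC, a ratio of 1.52, and ACC H3K4me2 on 69.2% (64.8 to 73.4) of those without ACC, a ratio of 1.36.

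So H3K4me2 of the missing subregion was listed at most elements without RSC or ACC, and at a minority of those without MEC or LEC. Relative to all elements, however, MEC was above its share, as were RSC and ACC, and only LEC was below. With H3K4me2 lists of the MEC number, the widest kept, the ratios were 1.29 for MEC, 0.64 for LEC, 1.81 for RSC and 1.81 for ACC, and the shares were 25.2%, 17.9%, 51.9% and 52.3%. The joined spans were of similar width in the 4 classes, with medians of 3275 bp without MEC, 3575 bp without LEC, 3425 bp without RSC and 3250 bp without ACC. All were wider than the 2175 bp of all elements, and overlap was counted from 1 bp, so the ratios were not matched for width. The classes without LEC, RSC or ACC all needed a region in the short MEC list, which the class without MEC did not.

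**Figure D4:**
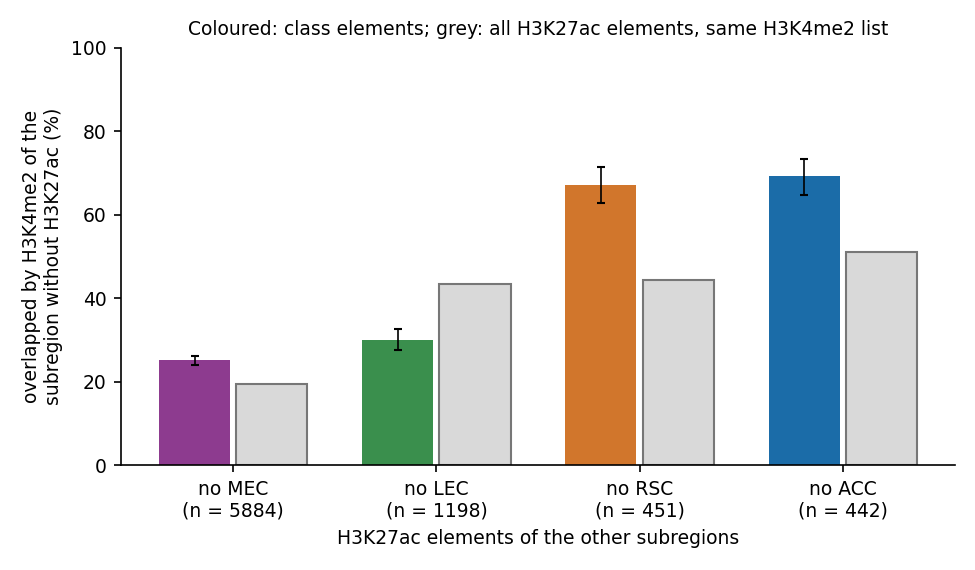
Percentage of elements of 3 subregions that were overlapped by the H3K4me2 enhancer list of the subregion without H3K27ac (coloured, with Wilson 95% intervals), beside the percentage of all 42115 H3K27ac elements overlapped by the same list (grey). The share was 25.2% against 19.5% for MEC, 30.1% against 43.5% for LEC, 67.2% against 44.3% for RSC and 69.2% against 51.1% for ACC.

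Enhancers without H3K4me2 had the narrowest cores, and those with the mark in all 4 subregions lay farthest from excluded H3K27ac regions, those that the full lists hold and the enhancer lists leave out by a rule that no source used here gives. The median common core was 1375 bp in the 767 without H3K4me2, 1550 bp with the mark in 1 subregion, 1625 bp in 2, 1825 bp in 3 and 1800 bp in all 4. The share within 10 kb of an excluded region of ACC, RSC or LEC was 32.5%, 31.1%, 32.2%, 29.9% and 23.6% in the same order. The 919 enhancers with H3K4me2 in all 4 subregions had a median distance to an excluded region of 28.2 kb, against 21.5 kb in those without the mark.

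Location could be given only relative to other regions and by chromosome, since the positions are in build mm9 and the gene table at hand is for another build. Relative to excluded H3K27ac regions the non-MEC shared enhancers and the elements of all 4 subregions had overlapping intervals at 1 and 10 kb, and at 100 kb the non-MEC shared enhancers were higher. Within 10 kb of an excluded region of ACC, RSC or LEC were 30.0% (28.8 to 31.1), where the figure for all elements was 34.9%, and 29.2% (27.9 to 30.6) of the elements of all 4 subregions. Within 100 kb were 84.7% (83.7 to 85.6), against 80.7% of all elements and 81.8% (80.6 to 82.9) of those of all 4 subregions. Within 1 kb were 2.16% (1.82 to 2.56), against 13.3% of all elements and 2.20% (1.79 to 2.70) of those of all 4 subregions. Part of the low value follows from the rule, since a site that ACC, RSC and LEC all list as an enhancer leaves little room for an excluded region of the same lists.

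The excluded regions nearest to these enhancers were listed in MEC less often than those nearest to the elements of all 4 subregions. The nearest excluded region overlapped the full MEC H3K27ac list for 53.1% (51.8 to 54.3) of the non-MEC shared enhancers, for 63.0% (61.5 to 64.4) of the elements of all 4 subregions and for 56.1% (55.6 to 56.5) of all elements. For the other classes the shares were 66.4% (63.6 to 69.0) without LEC, 59.0% (54.4 to 63.4) without RSC and 64.0% (59.4 to 68.4) without ACC. The rule did not use these excluded regions, though it used the same MEC list, and neighbouring enhancers can share the same one.

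The nearest MEC H3K27ac region of any kind lay at a median of 23.3 kb, with quartiles of 8.98 and 58.5 kb. Under 5 kb away were 13.5% of the enhancers, 5 to 20 kb away 31.8%, 20 to 100 kb away 40.5% and 100 to 500 kb away 13.3%. MEC H3K4me2 did not fade with this distance. It was found at 22.1% (19.3 to 25.1), 23.2% (21.3 to 25.1), 26.0% (24.3 to 27.8) and 29.0% (26.0 to 32.3) in these bands, and at 22 of the 46 enhancers 500 kb or more away. ACC H3K4me2 was at 66.8% (63.4 to 69.9) under 5 kb and at 71.1% to 78.3% in the other bands.

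All chromosomes held such enhancers. Chromosome 1 had the most with 489 and chromosome 19 the fewest autosomal ones with 118, while X had 161 and Y 2. As a share of the elements common to ACC, RSC and LEC, those without MEC ranged on the autosomes from 52.6% (47.8 to 57.4) on chromosome 17 to 63.6% (58.8 to 68.2) on chromosome 16, with 62.6% (56.6 to 68.3) on X. MEC H3K4me2 on them ranged over the autosomes from 19.6% on chromosome 17 to 30.4% on chromosome 12.

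Of the enhancers, 34.6% had no other non-MEC shared enhancer within 100 kb. Chained at gaps of up to 100 kb the enhancers formed 3303 groups, of which 2036 held 1 enhancer, and 172 groups of 5 or more held 1082. The median distance to the next non-MEC shared enhancer was 52.8 kb, and to the nearest element of all 4 subregions 114 kb. The latter are fewer, at 4092 against 5884, so a longer distance to them follows in part from number. Groups and distances were not computed for other elements, so clustering beyond that of enhancers in general was not tested. The largest group, chrX:10565801-11331350, held 16 in 766 kb. The full H3K27ac list of ACC had 32 regions there, that of RSC 22, that of LEC 30 and that of MEC 3. That imbalance follows from the choice of elements without MEC H3K27ac. The full H3K4me2 lists had 27 regions for ACC, 21 for RSC, 23 for LEC and 9 for MEC, and the enhancer lists lay on 11 of the 16 enhancers in each of ACC, RSC and LEC and on 3 in MEC.

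**Figure D5:**
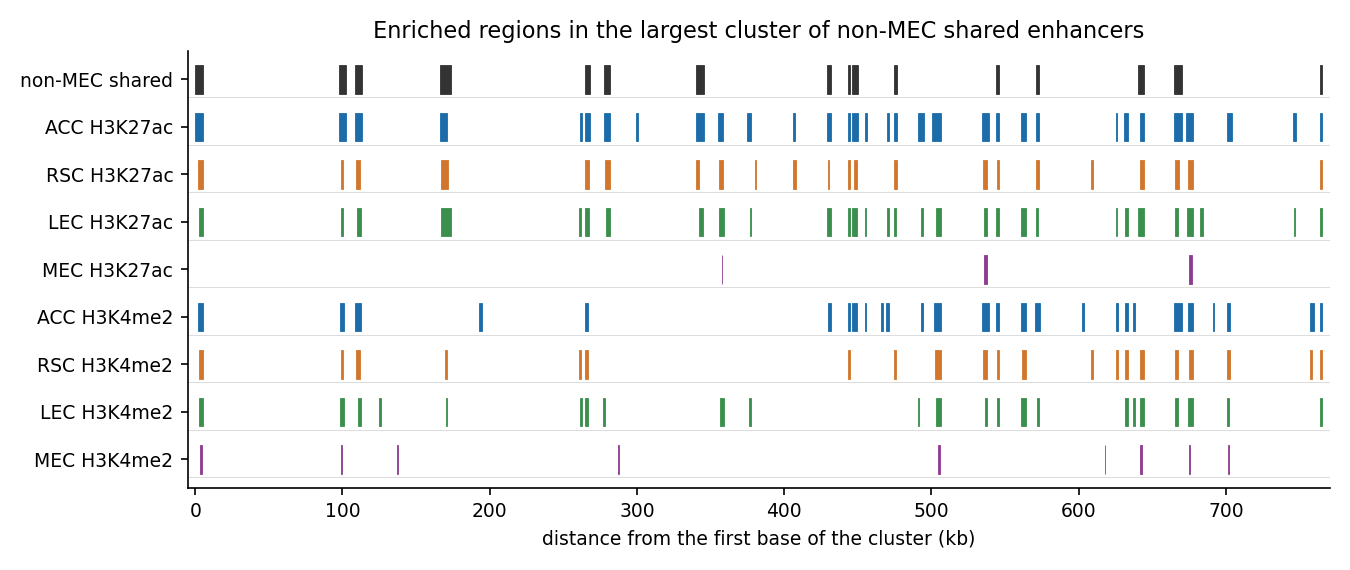
Regions of the full H3K27ac and H3K4me2 lists of ACC, RSC, LEC and MEC over the 766 kb of the largest group of non-MEC shared enhancers, by distance from its first base in kb. The top track shows the 16 enhancers. The MEC tracks hold 3 H3K27ac and 9 H3K4me2 regions, and the ACC tracks 32 and 27.

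The next groups in size lay on chromosomes 13, 8 and 1. The group at chr13:99831626-100322275 held 13 enhancers, with 35 full-list H3K27ac regions for ACC, 39 for RSC, 31 for LEC and 14 for MEC, and MEC H3K4me2 lay on 2 of the 13. The group at chr8:127717526-128144875 held 12, with 33, 24, 31 and 7 H3K27ac regions in the same order and MEC H3K4me2 on 1 of the 12. In both, MEC kept some H3K27ac between the enhancers, and 4 and 5 elements of all 4 subregions lay in the same spans.

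The last of the 5 largest groups held 11 enhancers each. At chr1:137377126-137691725 the full H3K27ac lists had 28 regions for ACC, 26 for RSC, 28 for LEC and 4 for MEC, and MEC H3K4me2 lay on 5 of the 11 enhancers. At chr13:42923951-43281475 they had 34, 33, 33 and 10, and MEC H3K4me2 lay on 2 of the 11. The chromosome 1 group had the largest share of MEC H3K4me2 among these 5 groups, beside 1 element of all 4 subregions in its span.

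The enhancers with the widest cores were broad in all 3 subregions. The widest, chr2:28140601-28169250, had 24250 bp of H3K27ac in ACC, 24675 bp in RSC and 24875 bp in LEC, with a core of 20275 bp. Its full-list H3K4me2 covered 5275 bp in ACC, 2825 bp in RSC, 2825 bp in LEC and 0 bp in MEC. The nearest MEC H3K27ac region was 11.5 kb away. At chr12:5241001-5266325 the core was 17050 bp, and H3K4me2 covered 19300 bp in ACC, 13050 bp in RSC and 17725 bp in LEC, and 0 bp in MEC. H3K27ac there covered more, with 24500 bp in ACC, 17875 bp in RSC and 22675 bp in LEC.

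The next in order of core width were chr11:49743926-49760975 with a core of 15325 bp, chr13:54416951-54435000 with 15275 bp and chr2:33197226-33213900 with 15100 bp. At the last of these H3K4me2 covered 14000 bp in ACC, 10125 bp in RSC and 14625 bp in LEC. All 5 had H3K4me2 in ACC, RSC and LEC and none in MEC. They were the extreme of the range: among the 100 enhancers with the widest cores MEC H3K4me2 lay on 35, ACC on 94, RSC on 90 and LEC on 90.

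Some enhancers without listed MEC H3K27ac had broad MEC H3K4me2. At chr13:21258526-21265900 MEC H3K4me2 covered all 7375 bp of the enhancer, as did ACC and RSC H3K4me2, whereas LEC had 0 bp. H3K27ac there covered 7100 bp in ACC, 4975 bp in RSC and 5775 bp in LEC. At chr8:46018826-46024700 MEC H3K4me2 covered 5600 bp, with 0 bp in ACC and 5875 bp in each of RSC and LEC. These 2 sites were thus without H3K4me2 in a subregion that had H3K27ac, and with it in MEC.

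At the other 3 enhancers with the most MEC H3K4me2 the mark was present in all 4 subregions. It covered 4425 bp in MEC at chr12:84825201-84830200, 4275 bp at chr9:105383426-105388575 and 3975 bp at chr11:74333051-74342175. At the first of these ACC had 5000 bp, RSC 4825 bp and LEC 4950 bp, so MEC H3K4me2 was nearly as broad as elsewhere.

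The enhancers farthest from any listed MEC H3K27ac region had none within 1 Mb on either side. At chr14:117378376-117380400 the nearest one was 1.75 Mb away. H3K27ac there covered 1800 bp in ACC, 2025 bp in RSC and 1650 bp in LEC, and H3K4me2 covered 1750 bp, 1975 bp and 1700 bp in the same order and 825 bp in MEC. At chr19:49934876-49935950, 1.04 Mb away, H3K4me2 covered all 1075 bp in each of ACC, RSC, LEC and MEC. These sites carried listed MEC H3K4me2 far from any listed MEC H3K27ac region.

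The other 3 had no MEC H3K4me2. They were chr8:103466626-103467700 at 1.53 Mb, chr10:46437826-46439975 at 1.14 Mb and chr16:73367026-73369650 at 1.04 Mb. The site on chromosome 10 had no H3K4me2 in any subregion, and the other two had it in ACC, RSC and LEC.

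The edge of the rule separated few sites. Just inside it were chr2:65762126-65765725, 50 bp from a MEC H3K27ac region, chr15:66982126-66986800 at 100 bp and chr7:17140876-17145950 at 250 bp. MEC full-list H3K4me2 covered 200 bp, 200 bp and 1300 bp of them. Just outside were sites from the 17 elements without a MEC enhancer region that the full MEC list removed. Those overlapping it by the fewest bases were chr4:119931376-119938400 with 300 bp, chr5:131558476-131560400 with 1700 bp and chr11:53315301-53324725 with 1800 bp. Elements with a MEC enhancer region were not ranked here, and some of them held fewer MEC bases, from 525 bp. MEC H3K4me2 covered 0 bp, 525 bp and 0 bp of these.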

How the data were processed

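H3K27ac and H3K4me2 were measured by chromatin immunoprecipitation and sequencing, with 23 libraries in all, inputs included. Bowtie 1.1.1, bedtools 2.19.0 and build mm9 are named, per the submitters' processing notes. For the peak calling, its threshold and the pooling of libraries, details were not given in the sources used here. Each deposited list holds regions as a start and an end in bp, on a grid of 25 bp, and the authors gave a full and an enhancer list per subregion and mark. Of 17 lists 16 were used, since the other is a byte-for-byte copy. Enhancer regions were all in the full list of their subregion and mark. A deposited score, absent from the MEC H3K27ac lists, equals the width of the region, so no list holds enrichment or depth.

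Lists were joined and counted with Python 3.11.15, numpy 2.4.6, pandas 2.3.3 and scipy 1.17.1, and drawn with matplotlib 3.10.9, after the steps were tested on simulated data. Overlap means at least 1 bp, and positions are 1-based. Wilson 95% intervals cover counting error only, since elements are not replicates and neighbours are not independent. A gene table of GRCm38.p6, another build, was not used. The elements, lists and comparisons were chosen with earlier results of these data known. By rule, the sites named are the 5 with the widest core, the 5 with the most MEC full-list H3K4me2, the 5 farthest from MEC H3K27ac, the 5 largest groups at gaps up to 100 kb, and the 3 nearest to the edge of the rule on each side. Those outside the edge were taken from elements without a MEC enhancer region.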

Additional observations from a re-analysis of the deposited data

How the results depend on the processing

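Of 91 values recomputed under 15 other settings, 64 stayed within the 95% interval of the reported value, or for the number of enhancers within 1.5 times of it, and 27 did not. MEC had the lowest and ACC the highest H3K4me2 share in 13 of the 13 settings that gave all 4 shares. These settings shared most of their data, and the MEC H3K4me2 list was the shortest and the ACC list the longest. The exception was H3K4me2 lists of the MEC number, where the other lists kept their widest regions and the MEC list was whole. The constant order is therefore not independent of list length. Bringing the ACC, RSC and LEC H3K27ac lists to the MEC number, the widest kept, left 1698 enhancers of 5884, with a median span of 5400 bp, H3K4me2 on 80.4% for ACC, 71.2% for RSC and 74.6% for LEC, and 3.77% within 1 kb and 35.2% within 10 kb of an excluded region, while the MEC share stayed within its interval. Bringing the H3K4me2 lists to the MEC number gave 48.7% for ACC, 45.0% for RSC and 46.8% for LEC. Asking that 25% of the enhancer be covered gave 69.7% for ACC, 56.6% for RSC, 60.1% for LEC and 13.7% for MEC. Full H3K4me2 lists gave 74.9% for ACC and 67.5% for LEC. Regions of at least 1000 bp gave a span of 3450 bp and shares of 74.9% for ACC, 64.8% for RSC and 67.7% for LEC. Enhancers with 1 region per subregion had a span of 3075 bp, shares of 71.8% for ACC and 64.4% for LEC, and 1.81% within 1 kb of an excluded region. The common core in place of the span gave 1675 bp. Joining elements from ACC, RSC and LEC only, a setting chosen after seeing the data, moved none of its 8 values. Distance to MEC excluded regions gave 0.068% within 1 kb and 12.1% within 10 kb. Apart from what each setting itself changes, the cause was not tested.

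No paired analysis was possible because the lists hold no value per library and the results come from no test, so no library was left out in turn either. A list records only what passed the authors' threshold, at a depth that is unknown here, so a region missing from the MEC lists is not shown to lack the mark.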
